A study of Mus musculus with 112 samples.

Results

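Msx1, Msx2, Msx3 and Olig3 were described across mouse epiblast stem cells (EpiSC), which are pluripotent lines grown from the epiblast of the embryo after implantation, and across epiblasts, embryonic stem cells, induced pluripotent cells and fibroblasts. Every probe whose gene symbol in the non-normalized table was 1 of these 4 names was taken, which gave 7 probes of 4 genes among 45281 probes of 28888 genes. Msx1 and Msx3 had 2 and 3 probes, and Msx2 and Olig3 had 1 each. The 4 genes had been picked as a set with earlier results of these data known, so their levels and the calls on them below are a description of these arrays and no independent support for a difference.

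The Msx genes encode homeodomain transcription factors. In the developing spinal cord, bone morphogenetic proteins (BMPs) from the surface ectoderm and the roof plate act on dorsal progenitors, and Msx genes are among the genes that such signals switch on. Msx1 and Msx2 are also used in limb mesenchyme, neural crest and the primitive streak region, whereas mouse Msx3 is known chiefly from the dorsal neural tube. Olig3 encodes a basic helix-loop-helix factor of dorsal spinal cord progenitors, unlike its relatives Olig1 and Olig2, which are used in the ventral cord.

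The Illumina bead arrays held the following groups. The EpiSC were 18 lines of the R1-129 strain and 4 sublines, which were the same lines thawed at a different time, on 65 arrays, with 3 separately grown cultures a line or subline and 2 for PS4. The lines came from embryos at the cavity (E5.5 to E6.0, 4 lines), prestreak (E6.0 to E6.5, 3 lines), late midstreak (E6.75 to E7.5, 6 lines), early bud (E7.5 to E8.0, 2 lines) and late bud (E7.75 to E8.25, 3 lines) stages, and were at passages 10 to 19. The early bud lines EB1a and EB1b are sister lines. EpiSC9, an imported line of strain 129SvJ at passage 24, had 3 cultures and 1 further array of RNA supplied by its makers. The other cultured cells were 1 R1-129 embryonic stem cell line at passage 22 (ESC, 3 arrays), 3 induced pluripotent lines made from tail tip fibroblasts of (C57BL6xC3H)F1 hybrid mice (iPSC, 3 arrays each) and embryonic fibroblasts of ARC/s mice (MEF, 2 arrays). RNA of 17 single R1-129 epiblasts was amplified before labelling, as was RNA of 4 EpiSC lines (CAV2, PS5, LMS3 and LB2, 12 arrays). These epiblasts were grouped by time into 4 early (cavity and prestreak, E5.5 to E6.5), 6 streak (late midstreak and late streak, E6.75 to E7.5) and 7 bud embryos (no bud, early bud and late bud, E7.25 to E8.25). EpiSC were lifted off a fibroblast feeder layer with collagenase, so feeder RNA could be present.

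Values are log2 of background-corrected, quantile-normalized intensities, and a probe was called detected on an array at a detection p-value under 0.01. The share of probes detected was 33.7 to 41.1% on EpiSC arrays, 24.6 to 32.7% on amplified EpiSC arrays and 21.3 to 29% on epiblast arrays, so that a dim gene was more easily missed in the epiblasts. Some marker sets separated the labelled cell types. The summed linear level of 5 naive pluripotency markers was 189.3 to 974 in EpiSC and 30525 to 31154 in ESC. Of 4 markers of pluripotent cells, Pou5f1, Nanog and Utf1 were detected on no MEF array, while Sox2 was detected on a MEF array. All 5 markers of the epiblast after implantation were detected on every EpiSC array, and also on every ESC and iPSC array. Their sum was 10706 to 41204 in EpiSC and 19179 to 20054 in ESC, so they do not separate these cells. Some arrays stood apart from their labels. The 3 arrays labelled iPSC3 correlated with the ESC arrays at r = 0.994 to 0.996 over all genes, against 0.923 to 0.946 for iPSC1 and iPSC2. Amplified arrays labelled PS5 followed the unamplified arrays labelled LB2 (r = 0.577 of deviations over 7545 genes) and those labelled LB2 followed PS5 (r = 0.357), while the matches by label were -0.217 and -0.125. The Y-linked gene Eif2s3y was 9.42 to 10.4 in unamplified PS5 and undetected in amplified PS5. It was undetected in unamplified LB2 and 8.41 to 8.77 in amplified LB2. In iPSC3 it was undetected, as in ESC, while it was 7.76 to 8.77 in iPSC1 and 6.68 to 8.49 in iPSC2. The names PS5, LB2 and iPSC3 therefore mean the labels throughout. One label field calls 2 of the bud epiblasts cultured cells. The arrays also fell into 7 sets by the pattern of their undetected probes, and the ESC and iPSC arrays made up a set of their own, so that cell type and array set cannot be told apart for them. In bulk RNA, fewer cells of a type and less RNA per cell cannot be told apart.

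The promoters are shown because Msx3 and Olig3 varied together among EpiSC lines and Msx1 did not. They are the 250 bases before each gene's start, 5′ to 3′ on the gene's strand, from RefSeq on GRCm38.p6, at chr5:37824586-37824835, minus strand for Msx1; chr13:53472781-53473030, minus strand for Msx2; chr7:140049089-140049338, minus strand for Msx3, and chr10:19356289-19356538, plus strand for Olig3. Capitals mark matches on either strand to TATAAA (the TATA box), CCAAT (the CCAAT box) and GGGCGG (the GC box). They also mark CANNTG, the E-box that helix-loop-helix factors bind, and TAATTG, which homeodomain factors of the Msx kind bind.
Msx1: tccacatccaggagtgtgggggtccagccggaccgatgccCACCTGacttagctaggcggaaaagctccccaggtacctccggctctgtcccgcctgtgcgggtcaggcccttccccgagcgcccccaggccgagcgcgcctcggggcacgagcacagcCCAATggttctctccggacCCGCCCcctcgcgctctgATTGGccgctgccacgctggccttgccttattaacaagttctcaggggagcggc
Msx2: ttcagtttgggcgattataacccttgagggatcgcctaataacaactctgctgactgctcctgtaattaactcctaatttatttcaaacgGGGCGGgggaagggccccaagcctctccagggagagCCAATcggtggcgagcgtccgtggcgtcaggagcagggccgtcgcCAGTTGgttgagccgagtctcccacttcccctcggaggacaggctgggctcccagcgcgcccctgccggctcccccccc
Msx3: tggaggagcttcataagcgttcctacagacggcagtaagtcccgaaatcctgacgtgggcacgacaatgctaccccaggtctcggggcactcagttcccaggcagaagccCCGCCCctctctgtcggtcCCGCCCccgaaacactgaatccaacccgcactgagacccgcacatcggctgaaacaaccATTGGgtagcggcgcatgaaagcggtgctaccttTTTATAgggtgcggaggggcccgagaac
Olig3: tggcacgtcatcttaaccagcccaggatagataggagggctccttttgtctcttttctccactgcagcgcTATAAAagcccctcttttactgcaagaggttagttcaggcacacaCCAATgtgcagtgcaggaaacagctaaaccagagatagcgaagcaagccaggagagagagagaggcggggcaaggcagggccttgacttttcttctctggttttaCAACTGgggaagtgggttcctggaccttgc
Among 32841 promoters of this length, TATAAA was found in 12.4%, CCAAT in 33.9%, GGGCGG in 32.7%, CANNTG in 66.2% and TAATTG in 7.17%. Counted from the first base of each match to the gene's start, Msx3 had a TATA box on the reverse strand 28 bases before the start, a CCAAT box in reverse 62 bases before it and a pair of GC boxes in reverse, the farther 140 bases before it. Olig3 had a TATA box 180 bases before its start, a CCAAT box, and an E-box 30 bases before the start. Msx1 had CCAAT boxes at 91 and, in reverse, 54 bases, a GC box in reverse at 72 bases and an E-box at 210 bases. Msx2 had a CCAAT box at 124 bases, a GC box at 160 bases and an E-box at 79 bases. TAATTG was in none of the 4 windows. The GC content was 68.0% for Msx1, 61.6% for Msx2, 60% for Msx3 and 51.6% for Olig3, against a median of 52.4% over all promoters. These are matches of letters in a window and not measured sites.

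Msx2 was not measured above background anywhere. Its probe lay between 4.28 and 4.94 on every array and was detected on none, so Msx2 entered no test and gets no fold change. Msx1 was represented by the brighter of its probes, detected on 80 arrays, and the other Msx1 probe was detected on 2 epiblast arrays and on 0 of 65 EpiSC arrays. That other probe was also detected on 0 of 2 MEF arrays, so the Msx1 results below rest on the brighter probe alone. The Olig3 probe was detected on 82 arrays.

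The 3 Msx3 probes did not give the same picture of where Msx3 is expressed. ILMN_2774332, the brightest, was detected on 78 arrays and stands for Msx3 below wherever no other probe is named. ILMN_2926942 was detected on 40 of 65 EpiSC arrays and on no ESC, iPSC, MEF or epiblast array. ILMN_1234996 was detected on 65 of 65 EpiSC arrays, 6 of 9 iPSC arrays, 2 of 2 MEF arrays and 1 of 17 epiblasts, so that Msx3 as a gene cannot be called undetected in those cells.

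By the brightest Msx3 probe, Msx3 and Olig3 were detected in nearly all EpiSC cultures and were at or near background in the other cultured cells. Msx3 ran from 4.56 through a median of 7.995 to 11.62 on the 65 EpiSC arrays, and was 4.47, 4.48 and 4.55 on the ESC arrays. The iPSC arrays lay between 4.34 and 4.66 with a median of 4.51, and the MEF arrays were at 4.42 and 4.64. This probe was detected on 62 of 65 EpiSC arrays and on none of the ESC, iPSC and MEF arrays, and the 3 EpiSC arrays without it were the cultures of the LMS2 subline. These 3 reached the levels of the other cell types, while every other EpiSC culture lay above them.

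Olig3 showed the same division with a weaker edge. Its EpiSC values ran from 4.97 through a median of 8.17 to 9.92, against 4.69, 4.70 and 4.79 in ESC. The iPSC values ran from 4.64 through 4.82 to 6.09 and the MEF values were 5.11 and 5.38. Olig3 was detected on 62 of 65 EpiSC arrays, on 4 of 9 iPSC arrays (2 of them labelled iPSC3) and on none of the ESC and MEF arrays. The brightest iPSC array lay below the 62 EpiSC arrays on which Olig3 was detected, and the LMS2 subline was again the exception.

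Averaged over the 18 lines, Msx3 was 7.87 ± 1.21 in EpiSC (SD, n = 18) and 4.501 ± 0.045 in ESC (SD, n = 3 arrays of 1 line). Where a probe was undetected in a whole group, only a bound on the fold can be given, counted against the lowest signal that was detected on each dim array. By that rule ILMN_2774332 was at least 5.70-fold higher in EpiSC than in ESC, at least 5.87-fold higher than in iPSC and at least 4.82-fold higher than in MEF. For the other Msx3 probes the values were smaller. ILMN_2926942 was at least 1.23-fold, 1.26-fold and 1.04-fold higher in EpiSC than in ESC, iPSC and MEF, and passed against iPSC alone (limma, adjusted p = 0.0237, against 0.213 for ESC and 0.140 for MEF). ILMN_1234996 was at least 2.26-fold higher in EpiSC than in ESC (adjusted p = 0.0419). It was higher than in iPSC by 1.12 on the log2 scale (adjusted p = 0.00276). It averaged 6.54 in EpiSC against 5.92 in MEF, a difference of 0.61 on the log2 scale that did not pass (limma, adjusted p = 0.296). Olig3 was at least 6.68-fold higher in EpiSC than in ESC and at least 5.65-fold higher than in MEF. Set against iPSC with their 4 detected arrays, the fitted Olig3 difference was 2.94 ± 0.57 (log2, SE). Without iPSC3, the bound of ILMN_2774332 against iPSC was 5.88-fold.

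By its brighter probe, Msx1 ordered the cell types differently. In EpiSC it ran from 4.55 through a median of 5.89 to 7.87, against 7.09 and 8.90 in the MEF. The ESC arrays were at 5.02, 5.36 and 5.52 and the iPSC arrays ran from 4.88 through 5.24 to 5.97. Only 1 of the 2 MEF arrays lay above every EpiSC array, and the ESC and iPSC arrays lay within the lower part of the EpiSC range. The fitted log2 change of Msx1 in EpiSC against MEF was -2.01 ± 0.64. This value rested on 2 MEF arrays that differed widely, and was -1.10 (adjusted p = 0.166) without the brighter one and -2.91 without the dimmer one. The summed linear level of 12 fibroblast markers was 2279 to 20366 in EpiSC, 2586 to 2860 in ESC and 44042 to 44693 in MEF, and its part in the Msx1 values was not tested. Against ESC and iPSC the Msx1 differences of 0.69 ± 0.64 and 0.63 ± 0.39 did not pass the test in limma (adjusted p = 0.454 and 0.194).

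With limma and Benjamini-Hochberg adjustment over all genes, Msx3 and Olig3 were called higher in EpiSC than in ESC, where 26.3% of all genes tested were called. Both were also called against iPSC, where 42.3% of genes were called, and Msx3, Olig3 and Msx1 were called against MEF, where 43.2% were. The Msx3 and Olig3 calls against ESC and MEF depended on the processing. Without that step, or with the deposited processed values, the Msx3 and Olig3 differences from ESC and MEF were 1.47 to 1.70 on the log2 scale and no longer passed (adjusted p = 0.0595 to 0.0967).

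**Figure D1:**
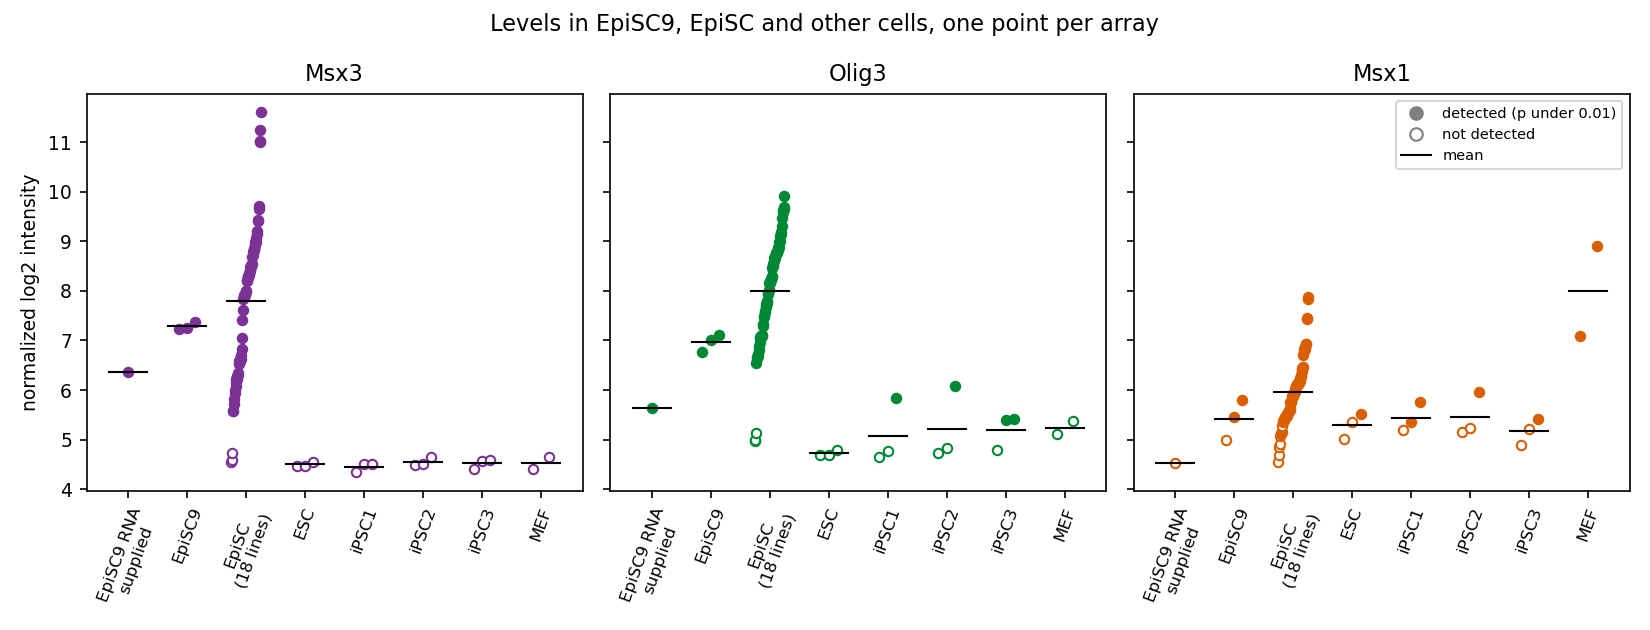
Normalized log2 value of Msx3, Olig3 and Msx1 on each array of cultured cells (unamplified RNA), with groups from left to right as supplied EpiSC9 RNA, EpiSC9, EpiSC, ESC, iPSC1 to iPSC3 and MEF. Filled points are detected arrays, open points are not, and lines are group means. Msx3 spans 4.56 to 11.62 in EpiSC (probe ILMN_2774332) and is open in ESC, iPSC and MEF, and Msx1 is highest on a MEF array, at 8.90.

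The independently derived EpiSC9 cells also had Msx3 and Olig3. Msx3 was 7.22, 7.24 and 7.38 in EpiSC9, and Olig3 was 6.78, 7.01 and 7.12, all detected and within the range of the R1-129 lines. Msx1 was 4.996, 5.46 and 5.81, detected on 2 of 3 arrays. None of the 3 genes was called different between EpiSC9 and the 18 lines by limma, where 1.67% of all genes were called; the differences were -0.59 ± 1.08 for Msx3, -1.13 ± 0.95 for Olig3 and -0.56 ± 0.64 for Msx1 (adjusted p = 0.876, 0.676 and 0.777). Their unadjusted p-values were also above 0.05.

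Among the 22 lines and sublines, Msx3 spanned a range that was large beside the spread of cultures. The SD of the 22 means was 1.58, against a mean SD between cultures of 0.33. The CAV2 subline stood at the top with 11.02, 11.24 and 11.62, and below it PS4 had 1 culture at 11.01 and another at 8.32. Then came the CAV3 subline (mean 9.45), LB3 (9.17), EB1a (9.16), CAV4 (8.80), the LB1 subline (8.74), EB1b (8.62), PS3 (8.54), CAV1 (8.21), LMS5 (8.19), LMS4 (8.10), LB1 (8.001) and PS5 (7.66). A lower group followed with LB2 (6.76), LMS2 (6.68), LMS1 (6.25), CAV2 (6.20), LMS6 (6.14), LMS3 (6.07) and CAV3 (5.84), and the LMS2 subline was last at 4.56, 4.60 and 4.74, undetected. Of the 21 steps between neighbours in this order, 6 were larger than the mean culture SD. The largest were 1.63 below the CAV2 subline, 1.21 above the LMS2 subline and 0.90 between PS5 and LB2; most other neighbours did not differ beyond their spread. No culture lay between 7.04 in the lower group and 7.42 in PS5.

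Olig3 varied less and in part with Msx3. The SD of its 22 means was 1.11, against 0.20 between cultures. EB1b (9.47, 9.70 and 9.92) and EB1a (9.59, 9.64 and 9.66) were highest, and the LMS2 subline (4.97, 4.99 and 5.13) lay 1.77 below its nearest neighbour LMS2 (6.65, 6.67 and 7.07). Between them were PS4 (9.06), CAV4 (9.05), LB3 (9.03), PS3 (8.78), the CAV3 subline (8.64), LMS6 (8.57), the CAV2 subline (8.52), the LB1 subline (8.397), CAV1 (8.33), LB1 (8.11), PS5 (7.96), CAV2 (7.78), CAV3 (7.57), LMS5 (7.51), LMS1 (7.16), LMS3 (6.90), LMS4 (6.90) and LB2 (6.82). In this order 6 of 21 steps exceeded the mean culture SD, among them the 0.57 between EB1a and PS4. LMS6 stood lower in the order of Msx3 than in that of Olig3, and LMS4 higher.

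Msx1 followed another order. LMS4 was highest with 7.44, 7.45 and 7.87, and PS4 came next with 7.84 in the culture that also had the higher Msx3, and 6.13 in the other. CAV1 (6.91) and LB1 (6.79) followed, 0.43 above a long run of lines from LMS6 (6.36) down to LB2 (4.88), within which no step exceeded the mean culture SD of 0.25. Msx1 was undetected on all arrays of LB2 and of the CAV2 subline, the culture with the most Msx3, and on 2 of 3 arrays of CAV4 and PS5. The 2 cultures of PS4 thus differed in Msx3 and Msx1 and were alike in Olig3 (9.004 and 9.11).

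**Figure D2:**
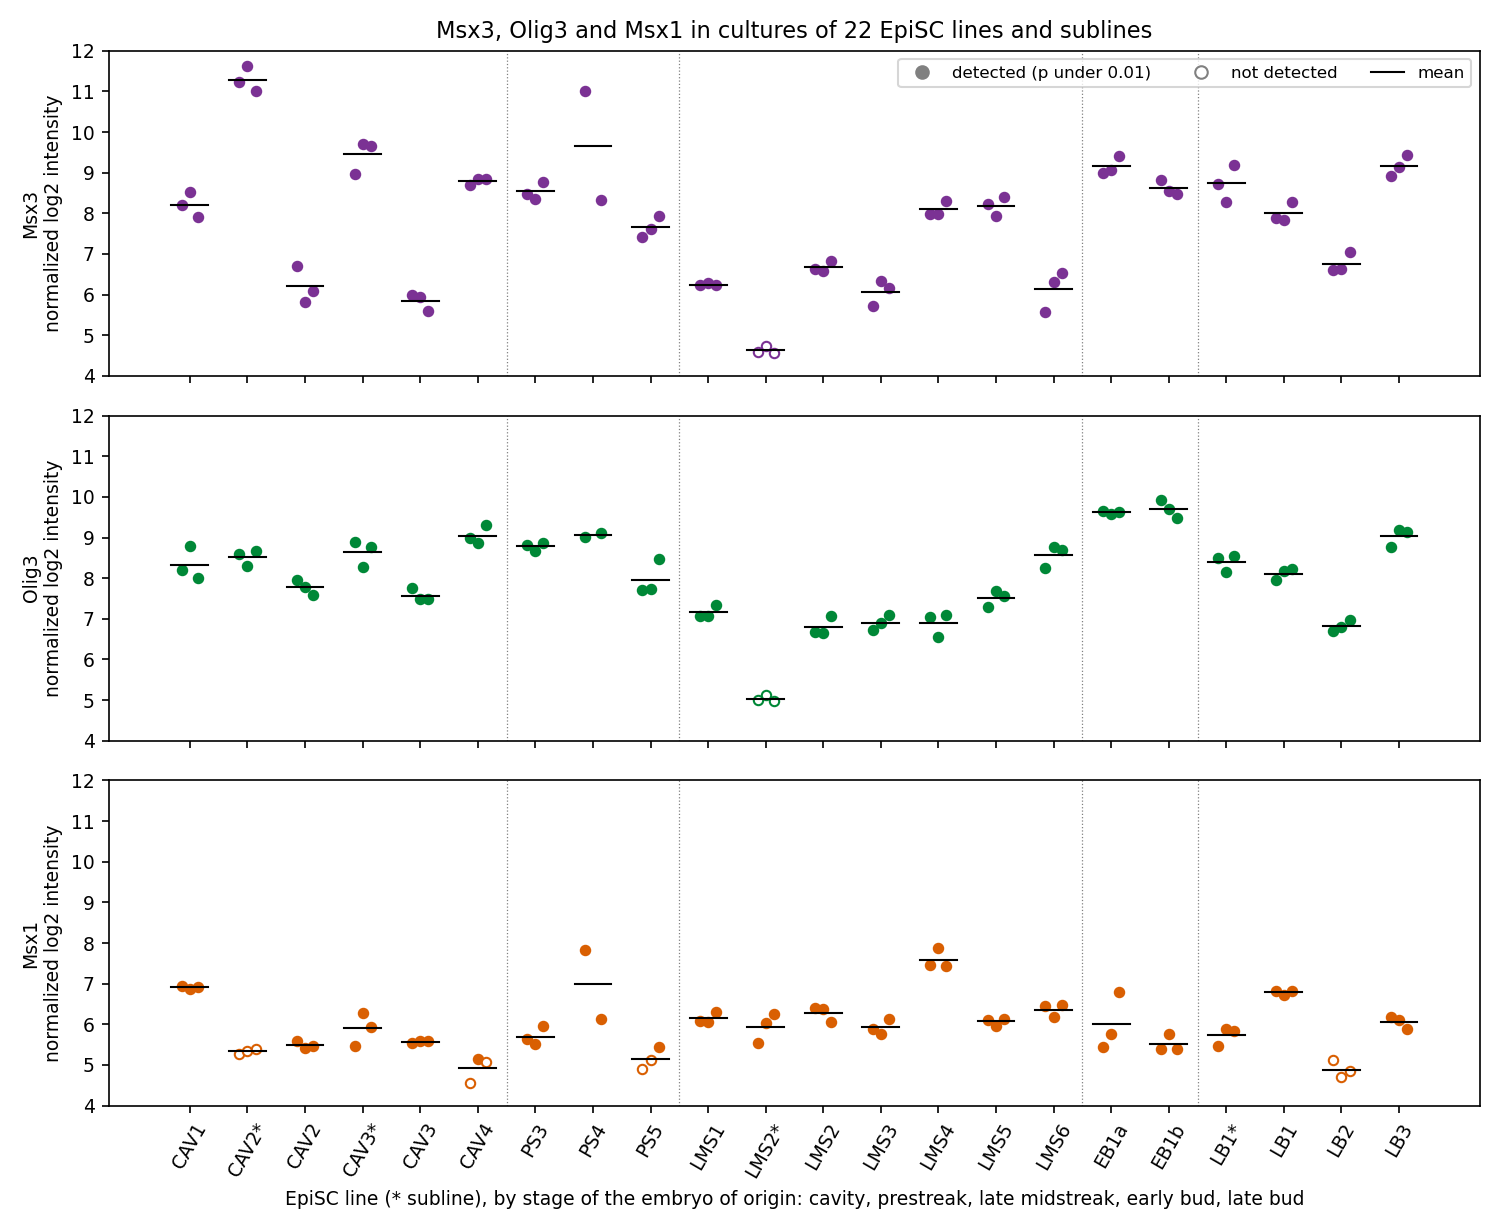
Normalized log2 value of Msx3, Olig3 and Msx1 in every culture of the 22 EpiSC lines and sublines, with each subline (marked *) left of its line. Filled points are detected, open points are not, lines are means of a line or subline, and dotted lines part the stages of origin. Msx3 is highest in the CAV2 subline, at 11.02 to 11.62, and Msx3 (probe ILMN_2774332) and Olig3 are undetected only in the LMS2 subline.

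All 3 measurable genes were called different among the 22 lines and sublines, as were 92.9% of all genes tested, so the call itself sets them apart from few others. Over the 22 means, Msx3 and Olig3 correlated at r = 0.73 (Spearman's rho 0.74), while Msx1 correlated with Msx3 at 0.03 and with Olig3 at -0.08. Without the CAV2 and LMS2 sublines, the points farthest from the median of Msx3, Msx3 and Olig3 correlated at 0.70 over 20 means. These points share array sets, normalization and, for the sublines, an embryo. The sister lines EB1a and EB1b, highest in Olig3, count as separate points here but are not independent. Lines within a single array set were also compared, in splits added after the data were seen. In the set that held 3 sublines, EB1a and EB1b, Msx3 and Olig3 were called among lines (adjusted p = 2.28e-14 and 1.58e-14) and Msx1 was not (adjusted p = 0.146). In the set that held CAV1, CAV2, CAV3, LB1 and LMS1, all 3 genes were called. The share of all genes called within these sets was not counted, so nothing particular to these genes is read from the calls.

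**Figure D3:**
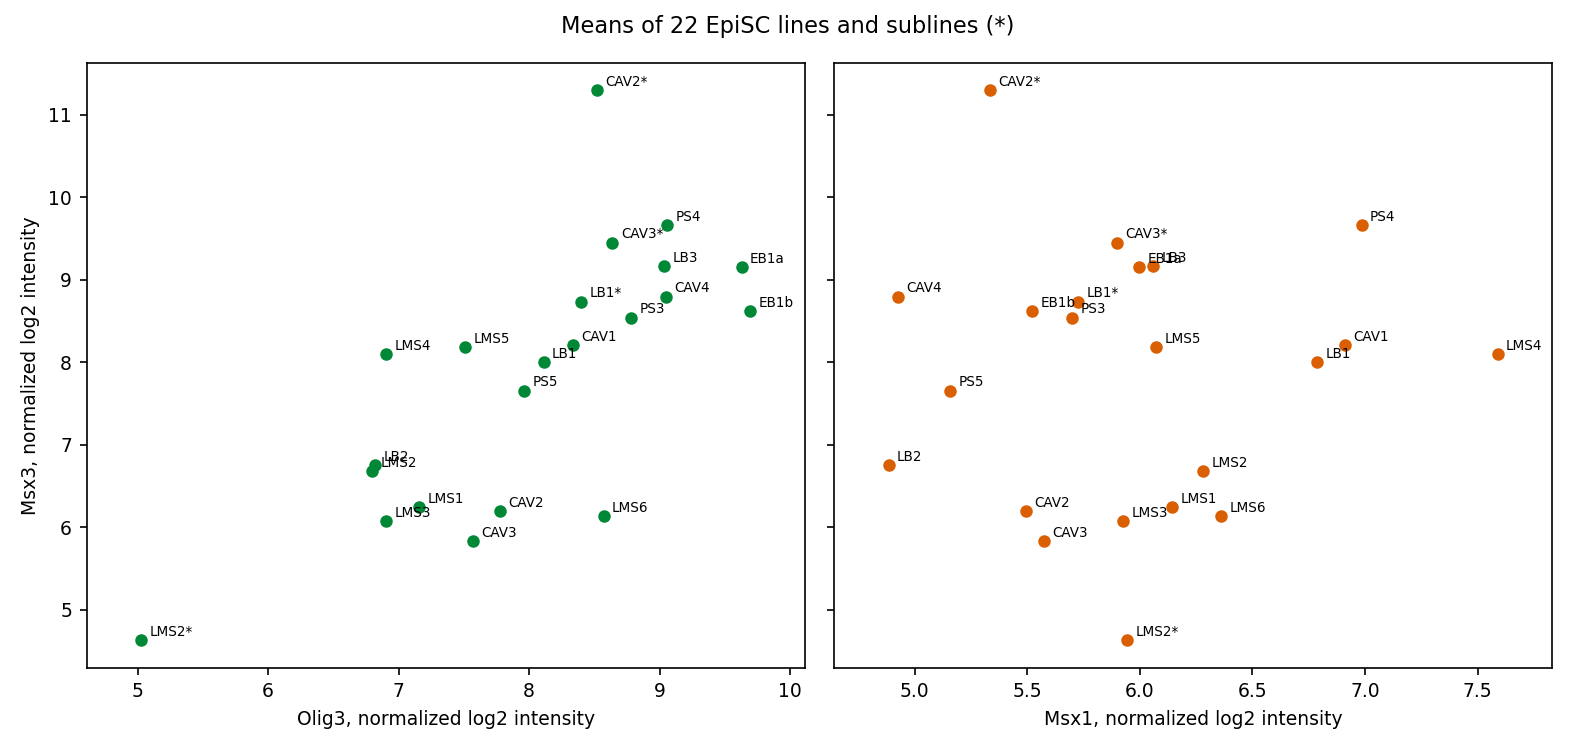
Means of normalized log2 values of 22 EpiSC lines and sublines (marked *), with Msx3 on the vertical axes and Olig3 (left) or Msx1 (right) on the horizontal axes. Msx3 runs upward with Olig3, with r = 0.73, and the points with Msx1 form no line, with r = 0.03.

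No difference by the embryonic stage a line came from passed the test for these genes. Line means of Msx3 averaged 8.35 ± 0.54 for cavity (n = 4), 8.62 ± 1.01 for prestreak (n = 3), 6.73 ± 1.11 for late midstreak (n = 6), 8.89 ± 0.38 for early bud (n = 2) and 8.10 ± 1.23 for late bud lines (n = 3; SD throughout). Olig3 averaged 8.41 ± 0.44, 8.602 ± 0.57, 7.16 ± 0.87, 9.66 ± 0.048 and 8.04 ± 1.12 in the same order of stages. The early bud values come from the sister lines EB1a and EB1b, so their SD is not a spread among independent lines. Late midstreak lines had the lowest mean of both genes. They overlapped the cavity, prestreak and late bud lines and lay below EB1a and EB1b. Msx1 stood between 5.73 and 6.37 at all stages, with its highest mean in late midstreak lines. By limma's F test across the stages the adjusted p was 0.337 for Olig3, 0.474 for Msx3 and 0.912 for Msx1 (unadjusted 0.0039, 0.0171 and 0.549), and 0.0139% of all genes were called.

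Msx3 differed widely between some lines and the same lines thawed at another time. In the CAV2 subline Msx3 was 11.02, 11.24 and 11.62, against 5.82, 6.08 and 6.71 in CAV2, a difference of 5.09 ± 0.30 or 34.1-fold. In the CAV3 subline it was 8.98, 9.66 and 9.71, against 5.59, 5.93 and 5.99 in CAV3, a difference of 3.61 ± 0.30 or 12.2-fold. In neither pair did subline and line overlap, and in both the subline was the higher. For these pairs and the LB1 pair below, the share of all genes without overlap was not counted. Nothing particular to Msx3 is read from the lack of it.

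The LMS2 subline lay below its line. Probe ILMN_2774332 was undetected on its 3 arrays, and was 6.59, 6.63 and 6.82 in LMS2, which puts it at least 2.63-fold lower in the subline. ILMN_1234996 was detected in both, with a difference of -0.51 that did not pass (adjusted p = 0.0832), and ILMN_2926942 was detected in neither. Olig3 was undetected in the subline and at least 2.84-fold lower than in LMS2. In the LB1 subline Msx3 was 8.29, 8.72 and 9.20, against 7.84, 7.88 and 8.28 in LB1, just without overlap, and the difference of 0.73 ± 0.30 did not pass (adjusted p = 0.0562, and 0.0322 and 0.0272 without the cultures numbered 1 and 2).

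Olig3 differed in the same direction as Msx3 in the CAV2, CAV3 and LMS2 pairs, by less in the CAV2 and CAV3 pairs. It was 8.31, 8.59 and 8.66 in the CAV2 subline, against 7.59, 7.80 and 7.95 in CAV2 (1.68-fold), and 8.28, 8.76 and 8.88 in the CAV3 subline, against 7.48, 7.48 and 7.753 in CAV3 (2.09-fold). The CAV2 difference of 0.74 ± 0.18 was 0.42 and did not pass under median scaling (adjusted p = 0.198). In the LB1 pair it differed by 0.29 ± 0.18 (adjusted p = 0.231). Msx1 changed in the LB1 pair, where it was 5.46, 5.84 and 5.88 in the subline, against 6.71, 6.82 and 6.83 in LB1, 2.09-fold lower. In the CAV2, CAV3 and LMS2 pairs Msx1 differed by -0.16, 0.32 and -0.34, each ± 0.24, and was not called (adjusted p = 0.628, 0.293 and 0.277).

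Msx3 and Olig3 were called in the CAV2, CAV3 and LMS2 pairs, and Msx1 in the LB1 pair. Of all genes tested, 44.2% were called in the CAV2 pair, 44.9% in the CAV3 pair, 39.5% in the LMS2 pair and 33.7% in the LB1 pair. The 4 subline effects differed from each other for all 3 genes in a test of the difference itself, as they did for 54.5% of genes. Each subline lay in other array sets than its line. The passage number also differed within every pair, and was higher in the CAV2 and LB1 sublines and lower in the CAV3 and LMS2 sublines than in their lines. Thaw, passage and array set therefore cannot be told apart. The fibroblast markers also differed. Their summed level on the log2 scale was 12.98 in the CAV2 subline and 13.37 in CAV2, 12.97 in the CAV3 subline and 11.49 in CAV3, 13.92 in the LMS2 subline and 12.95 in LMS2, and 13.77 in the LB1 subline and 13.71 in LB1. Their part in the result was not tested.

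Other dorsal genes, ventral genes and BMP genes were followed in the same pairs, from lists drawn up with earlier results of these data known. Their counts, here and in the following paragraphs on these pairs, stand beside the shares of all genes called in either direction. Those shares were 44.2%, 44.9%, 39.5% and 33.7% in the CAV2, CAV3, LMS2 and LB1 pairs. Nothing particular to a list is read from its counts. Among 6 tested roof plate and dorsal progenitor genes, 3 rose and 1 fell in the CAV2 subline and 3 rose in the CAV3 subline (list medians 0.37 and 0.50, against -0.04 and -0.0011 over all genes). Wnt3a, a signalling protein of the dorsal midline and the primitive streak, rose by 5.03 ± 0.27 in the CAV2 subline, with 1 of 3 CAV2 arrays detected, and by 1.83 ± 0.27 in the CAV3 subline. The proneural factor Neurog2 rose by 1.41 in the CAV2 subline and was at least 1.75-fold higher in the CAV3 subline. In the LMS2 subline 3 of the 6 fell and 1 rose, with Wnt3a at least 1.78-fold lower and Lmx1a, a roof plate factor, at least 2.21-fold lower. In the LB1 subline 1 rose and 1 fell.

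Of 9 tested genes of the neural plate border and neural crest, 4 rose and 4 fell in the CAV2 subline, 5 rose and 2 fell in the CAV3 subline, 1 rose and 4 fell in the LMS2 subline, and 2 fell in the LB1 subline. The zinc finger factor Zic1 rose by 1.99 ± 0.31 and 2.20 in the CAV2 and CAV3 sublines and fell by 1.23 in the LMS2 subline. Tfap2b, an AP-2 factor of neural crest, rose by 3.80 ± 0.26 and 2.65 in the CAV2 and CAV3 sublines. Of the intermediate and ventral genes, 5 of 8 fell and none rose in the CAV2 subline, including Olig1 (-3.70 ± 0.30) and Nkx6-1 (-1.53). In the CAV3 subline 5 of the 8 rose and 1 fell, and 6 of 8 fell in each of the LMS2 and LB1 sublines, where the floor plate signal Shh changed by -2.30 and -1.995.

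The BMP ligands and targets did not move with Msx3 in every pair. In the CAV2 subline, where Msx3 was highest, 2 of 3 tested ligands fell, with Bmp4 at -1.95 ± 0.21 and Bmp7 at -1.44, and 3 of 5 targets and feedback inhibitors fell, namely Id1 (-0.93), Id3 (-0.90) and Id2 (-0.85), which encode inhibitors of helix-loop-helix factors. In the CAV3 subline no ligand was called and 2 targets rose (Id4 by 1.60 and Id1 by 0.53). In the LMS2 subline Bmp4 rose by 0.93, Bmp7 fell by 1.26, and 2 targets fell, among them Id3 at -0.97. In the LB1 subline, where Msx1 fell, 2 ligands and 3 targets fell (Bmp7 -1.13, Id3 -0.95). Over the 22 means the correlations with Bmp4, Id1 and Id3 were -0.439, 0.340 and 0.257 for Msx3, -0.291, 0.335 and 0.378 for Olig3 and 0.397, 0.316 and 0.646 for Msx1. The correlations with the fibroblast sum were 0.061 for Msx3, -0.032 for Olig3 and 0.521 for Msx1.

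Against ESC and iPSC, the genes that carry BMP signals were higher in EpiSC. All 6 tested BMP receptors and Smads were called higher than in ESC (list median 1.10, against 0.02 over all genes), among them Acvr1 by 1.38 and Smad5 by 1.08, and all 6 were called higher than in iPSC. The share of all genes called was 26.3% against ESC and 42.3% against iPSC. No ligand and no target was called against ESC. Against iPSC, 1 of 3 ligands was higher (Bmp7 by 1.23) and 1 lower (Bmp4, -1.69), and 2 of 5 targets were higher (Id2 by 1.25 and Id3 by 0.85). Of the border and crest genes, 2 of 9 were called higher than in ESC (Sox9 by 4.29 ± 0.68, and Zic1 by at least 5.15-fold) and 4 of 9 higher than in iPSC, shares close to those over all genes. None of the 6 roof plate and dorsal progenitor genes was called against ESC, with Lmx1a at adjusted p = 0.151 in limma, and 2 of 6 were higher than in iPSC. None of the lists held a gene called by stage of origin, where only 0.0139% of all genes were called, so nothing is read from this.

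By its brighter probe, Msx1 was detected in most amplified epiblasts. Olig3 and the Msx3 probes ILMN_2774332 and ILMN_2926942 were detected in none, and ILMN_1234996 in 1 of 17, a late midstreak embryo at 7.15. Msx1 was 8.09 and 7.60 at the cavity stage and 6.96 and 7.22 at prestreak. It was 8.252, 7.63 and 7.55 at late midstreak and 8.12, 5.95 and 7.96 at late streak, and the 5.95 was undetected. It was 6.96, undetected, in the no bud embryo, 7.85, 7.54 and 7.62 at early bud and 7.67, 7.74 and 7.42 at late bud. The level thus stayed between 6.96 and 8.252 in all but 1 embryo, and 15 of 17 were detected.

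Msx1 averaged 7.47 in early, 7.58 in streak and 7.54 in bud epiblasts. Streak minus early was 0.11 ± 0.36, bud minus early 0.07 ± 0.35 and bud minus streak -0.03 ± 0.31 (limma, adjusted p = 0.928, 0.893 and 0.947), and single embryos or the scaling turned each sign. Msx3 by ILMN_2774332 ran from 4.34 through 4.54 to 6.58 and Olig3 from 4.42 through 5.11 to 5.64, with 0 of 17 detected, while the lowest detected value on these arrays was 6.12 to 7.29. A low level of either gene could not be measured there. Of these genes only Msx3 was called, in bud against early epiblasts (adjusted p = 0.0473), on values that were all undetected, and it gets no fold. That call held in 2 of 17 fits that each left out an embryo. It did not hold without background correction, with median scaling, with the deposited values, with no filter or with amplified arrays normalized apart. Over all genes 33.9% were called in bud against early, 6.29% in streak against early and 31.5% in bud against streak epiblasts.

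Some genes around the dorsal and streak programmes were called by stage, beside 33.9% of all genes in bud and 6.29% in streak against early epiblasts. Of 10 tested border and crest genes, 5 were called higher and 1 lower in bud than in early epiblasts, among them Sox9 (at least 21.4-fold) and Tfap2a (at least 4.47-fold). Of 5 tested genes of posterior streak and extraembryonic mesoderm, 5 were called higher in streak and 4 in bud than in early epiblasts. Wnt3a was at least 3.496-fold higher in streak and at least 13.2-fold higher in bud than in early epiblasts. Id2 rose by 2.39 and Id4 was at least 2.10-fold higher in bud epiblasts, while none of the 3 tested BMP ligands was called.

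Set against epiblasts, amplified EpiSC had more Olig3, more signal of the brightest Msx3 probe, and less signal of the brighter Msx1 probe. Msx3 ran from 7.14 through 7.86 to 8.55 on the 12 amplified EpiSC arrays and Olig3 from 6.70 through 7.52 to 7.90, all detected. Msx1 ran from 4.39 through 4.69 to 5.68 in amplified EpiSC, detected on 1 of 12 arrays, all below the dimmest epiblast at 5.95. Neither Olig3 nor Msx3 by ILMN_2774332 overlapped between amplified EpiSC and epiblasts. The other Msx3 probes did. ILMN_2926942 ran from 4.69 to 7.70 in amplified EpiSC, detected on 6 of 12 arrays, and from 4.27 to 5.21 in epiblasts. ILMN_1234996 ran from 4.42 to 5.53 in amplified EpiSC, detected on 0 of 12 arrays, and from 4.38 to 7.15 in epiblasts. The share of all genes without overlap was not counted, so nothing particular to these genes is read from the lack of it.

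**Figure D4:**
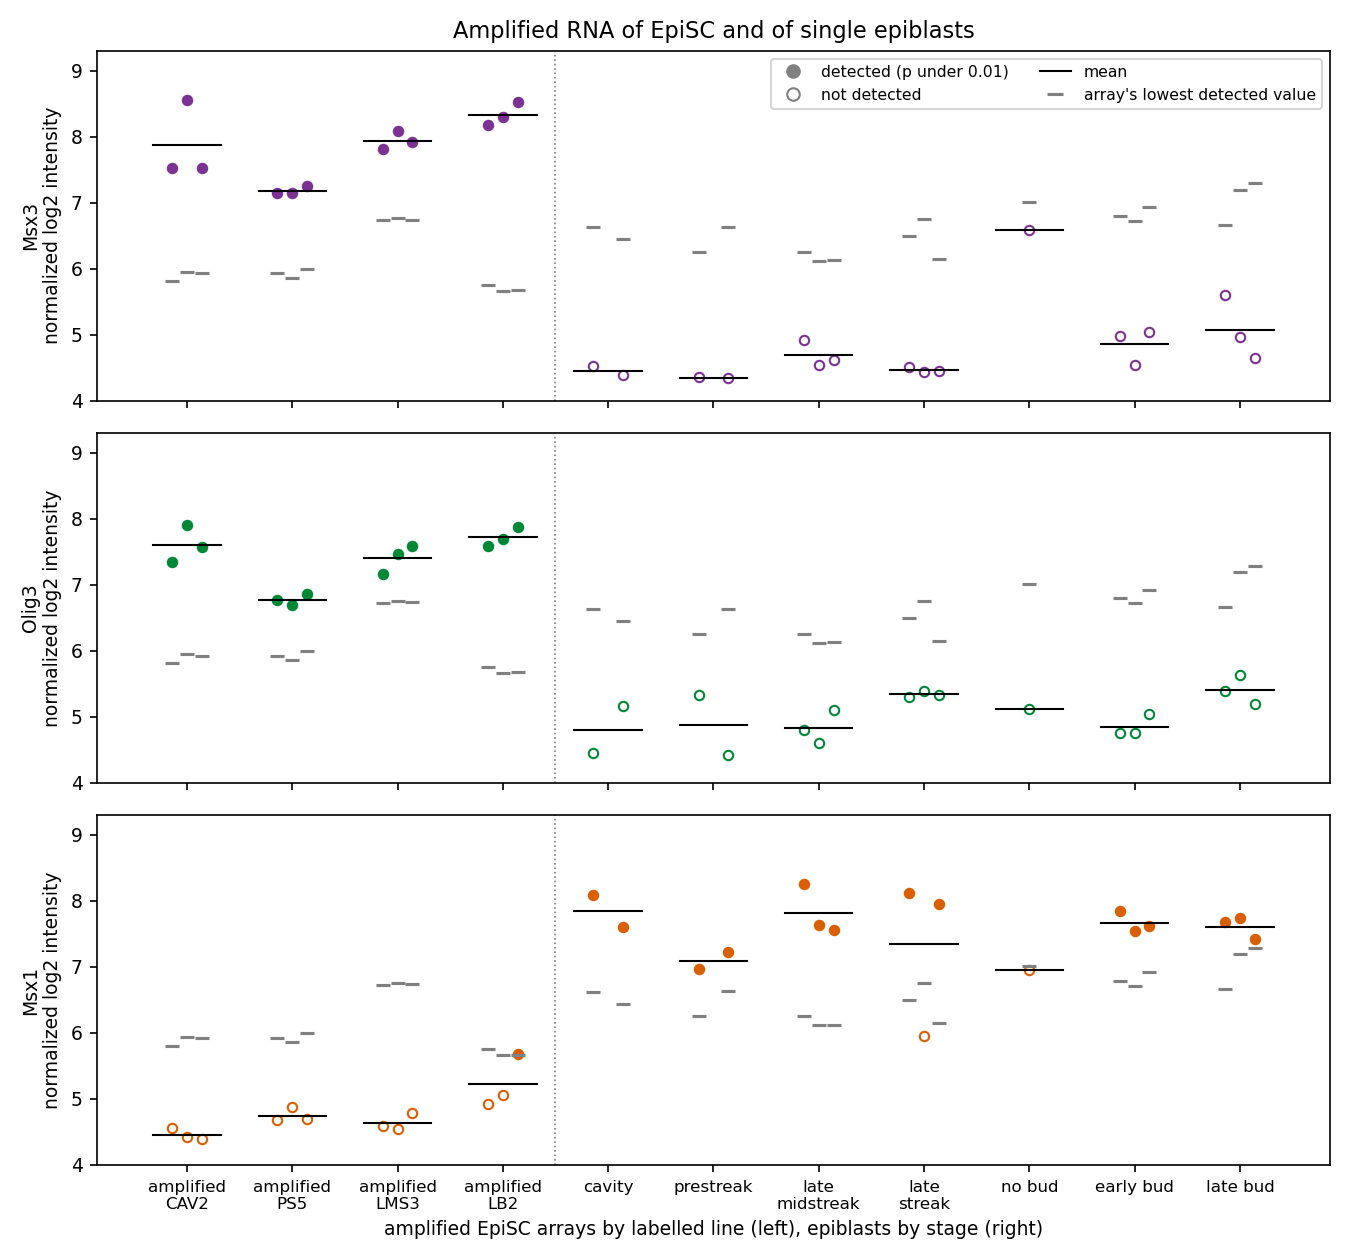
Normalized log2 value of Msx3, Olig3 and Msx1 on amplified arrays, with amplified EpiSC at the left and epiblasts by stage in time order to the right. Filled points are detected, open points are not, and the grey dash is the lowest detected value on that array. Msx1 is filled in 15 of 17 epiblasts and in 1 of 12 amplified EpiSC arrays, and Msx3 (probe ILMN_2774332) and Olig3 are filled in amplified EpiSC alone.

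By the bound, ILMN_2774332 was at least 2.53-fold, 2.86-fold and 1.85-fold higher in amplified EpiSC than in early, streak and bud epiblasts, and Olig3 at least 1.85-fold, 2.09-fold and 1.35-fold higher. The other Msx3 probes give no bound, and the mean of ILMN_1234996 was 4.92 in amplified EpiSC and 5.03, 5.56 and 5.64 in early, streak and bud epiblasts, detected on 1 epiblast array. Msx1 was lower in amplified EpiSC than in early, streak and bud epiblasts, by at least 2.65-fold, 2.85-fold and 2.79-fold when the 11 undetected arrays were set to their lowest detected signal. The other Msx1 probe was detected on 0 of 12 amplified EpiSC arrays and gave a bound against bud epiblasts alone, of 1.08-fold. All 3 genes were called in each of the comparisons, where 36.7%, 31.8% and 44.2% of all genes were called against early, streak and bud epiblasts. All 3 stayed called with the arrays labelled PS5 and LB2 left out. These comparisons share the amplified EpiSC arrays. Fibroblast markers were also higher in amplified EpiSC, with 10, 9 and 7 of 11 tested called against early, streak and bud epiblasts. Their summed linear level was 1956 to 8756 in amplified EpiSC and 748 to 808, 904 to 1441 and 1592 to 2721 in early, streak and bud epiblasts, in which Col1a1, Col1a2, Col3a1 and Lum were never detected. Their part in the result was not tested.

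Of the BMP targets, 2, 2 and 4 of 4 tested were lower in amplified EpiSC than in early, streak and bud epiblasts, and none was higher, beside 36.7%, 31.8% and 44.2% of all genes called in either direction. Id1 changed by -1.07, -2.58 and -1.42 and Id3 by -1.05, -1.34 and -1.63. Wnt3a was lower in amplified EpiSC than in bud epiblasts by a log2 change of -4.35 ± 0.67. Of the 8 intermediate and ventral genes, 7, 6 and 7 were higher in amplified EpiSC than in early, streak and bud epiblasts, including Olig1, at least 5.42-fold higher than in bud epiblasts.

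Amplified and unamplified RNA of EpiSC differed in Msx3 and Msx1, and no difference was called for Olig3. Over the 12 arrays of each kind, Msx3 was 7.14, 7.86 and 8.55 (lowest, median, highest) in amplified RNA, against 5.71, 6.62 and 7.94 in unamplified RNA of the lines with the same labels. The change was 1.16 ± 0.28 for Msx3 (adjusted p = 0.00166), -0.60 ± 0.19 for Msx1 (adjusted p = 0.00934) and 0.01 ± 0.23 for Olig3 (adjusted p = 0.969), in limma with 4 lines and 12 arrays each, paired by labelled line and culture number. With the line alone as the block, the SEs were 0.23, 0.16 and 0.19 and the same genes were called. Of all genes 73.2% were called. Msx1 was detected on 1 of 12 amplified arrays and on 7 of 12 unamplified ones, where it ran from 4.70 through 5.43 to 6.14, so it was detected on fewer EpiSC arrays after amplification. Without the arrays labelled PS5 and LB2 the changes were 1.76 for Msx3, -1.16 for Msx1 and 0.17 for Olig3. Under median scaling the median of all genes moved by -0.433, the Msx3 change became 0.41 (adjusted p = 0.211), and the Olig3 change -0.78 (adjusted p = 0.0165).

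The 3 Msx3 probes varied together over the lines and differed in the size of the changes between sublines and lines. Over the 22 means they correlated at 0.83 to 0.95. The CAV2 subline was higher than CAV2 by 5.09 for ILMN_2774332 and by 2.16 for ILMN_1234996 on the log2 scale. ILMN_2926942 was undetected in CAV2 and was at least 13.3-fold higher in the subline. The CAV3 subline was higher than CAV3 by 3.61 for ILMN_2774332 and by 0.62 for ILMN_1234996, and at least 3.04-fold for ILMN_2926942, again undetected in the line. In the LB1 pair ILMN_2774332, ILMN_2926942 and ILMN_1234996 differed by 0.73, 0.90 (limma, adjusted p = 0.0115, with 2 of 3 LB1 arrays detected) and -0.41 (adjusted p = 0.187). ILMN_1234996 was detected on 0 of 12 amplified EpiSC arrays and on 12 of 12 unamplified ones, while ILMN_2774332 was detected on all of both.

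**Figure D5:**
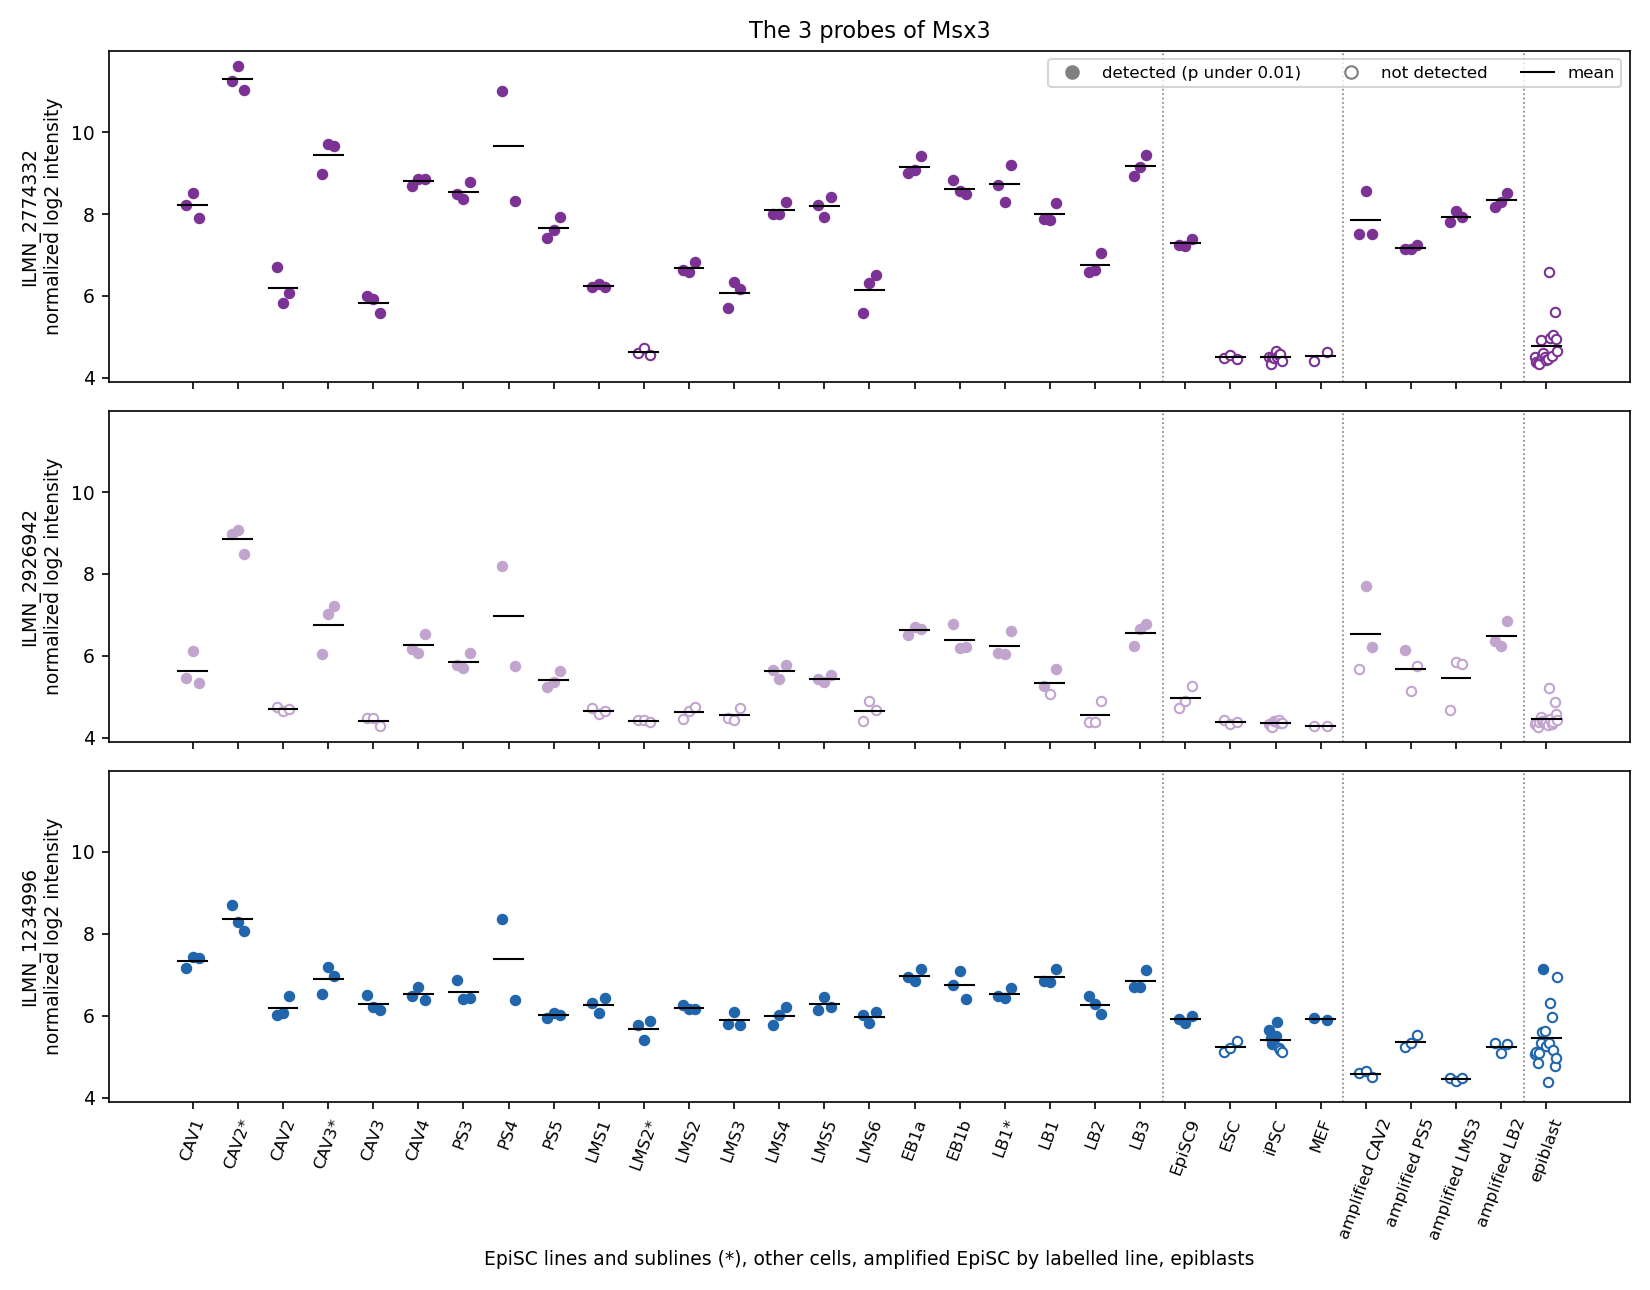
Normalized log2 values of the 3 Msx3 probes, a panel each, in EpiSC lines and sublines (marked *), other cells, amplified EpiSC by labelled line, and epiblasts. Filled points are detected, open points are not, and lines are means. All 3 probes are higher in the CAV2 subline than in CAV2, by 5.09 for ILMN_2774332, at least 13.3-fold for ILMN_2926942 and 2.16 for ILMN_1234996, and ILMN_1234996 alone is detected in MEF.

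The genes whose level followed Msx3 most closely over the 22 line and subline means, among 8951 genes, were Wnt3a (r = 0.906), Irx2 (0.897), Casz1 (0.891), Zic1 (0.877) and LOC547380 (0.868). Irx2 is an Iroquois homeodomain factor and Casz1 a zinc finger factor. Olig3 itself, at 0.729, came in at rank 74. Nearest to Olig3 were Cabp7 (0.894), Eml1 (0.861), Hoxb1 (0.841), Sox13 (0.804) and Mest (0.797). Hoxb1 is a Hox factor of the hindbrain, and Mest is an imprinted gene. Msx1 was nearest to Slc24a3 (0.809), Spock3 (0.806), Reep5 (0.764), Tax1bp3 (0.763) and Bicd2 (0.762). Over the 17 epiblasts, among 9460 genes, Msx1 lay nearest to SALF-PENDING (0.794), LOC100048376 (0.737), Aldh3a2 (0.731), Mkx (0.668) and Smox (0.653), a different set of names. With so many genes and few points such values describe the arrays only.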

How the data were processed

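The deposited non-normalized table holds, per the file headers, 1 bead intensity and 1 detection p-value per probe and array. A second deposited table holds processed log2 values of 31646 probes, made by the authors in a way not given in the sources used here, and served as an alternative. BeadStudio is named in the submitters' processing notes, with no version. Here intensities were background-corrected with limma's normexp fit on detection p-values, 16 was added, and log2 was taken after quantile normalization (R 4.3.3, limma 3.58.1). Their number, not a read depth, limits the precision. A gene was represented by whichever of its probes was brightest on average, and was tested if detected (p-value under 0.01) on at least 3 arrays of a comparison. Symbols were updated through RefSeq (15991 names matched as symbols, 5826 as synonyms and 8957 were kept).

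Differences are limma's moderated tests with a mean-variance trend, Benjamini-Hochberg adjusted over all genes tested, and called under 0.05. Lines were the unit against ESC, iPSC, MEF and EpiSC9 and by stage of origin, with sublines averaged into their line. Cultures were the unit among lines, for sublines and for amplification, and single embryos and amplified line means against epiblasts. Arrays were mostly not alike by culture number: the same number in 2 lines correlated at -0.224 to 0.573 (median 0.0062, 231 pairs), and amplified with unamplified arrays of a line at -0.168 to 0.00443. The amplification test was still paired by labelled line and culture number, and no other reported test was. The tests against ESC, of the CAV2 subline, of bud against early epiblasts and of amplification were tried on simulated data, and the others were not. The members and gene lists were chosen with earlier results of these data known. All members were named. Of each list at most 4 genes with the smallest adjusted p could be named, and by likeness the 5 genes with the highest r. Alternatives covered background correction, scaling, the deposited values, filters, probes, array sets, replicate blocks, sublines and each replicate left out.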

Additional observations from a re-analysis of the deposited data

Results flagged for a closer look

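Within groups of 4 to 10 values, 13 tests for a value far from the others were run and 2 stood out, where chance gives about 1 in 20. Among the 6 streak epiblasts, Msx1 was 5.95 in late streak embryo 2, undetected, with a gap of 0.696 of the group's range. Among the 6 EpiSC lines of late midstreak origin, Msx1 was 7.59 in LMS4, with a gap of 0.738 of the range.

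The difference between subline and line was not the same in the 4 pairs for any measurable member. The highest and lowest of the 4 differences lay 7.14 apart for Msx3 (CAV2 and LMS2), 2.83 apart for Olig3 (CAV3 and LMS2) and 1.38 apart for Msx1 (CAV3 and LB1), and limma's test of the difference among the pairs called each of the 3. The LMS2 values of Msx3 (probe ILMN_2774332) and Olig3 were taken against undetected subline arrays.

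The array of EpiSC9 RNA supplied by its makers entered no comparison. On it Msx3 (probe ILMN_2774332) was 6.36 and Olig3 5.65, both detected, above the ESC arrays, on which neither was, and Msx1 was 4.52, not detected.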

How the results depend on the processing

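Of 969 alternative values of single genes, 938 kept their direction and their side of the threshold, 15 changed sign, 13 no longer passed and 3 passed where they had not. Of 355 alternative counts of members called, 328 stayed within 1.5 times the count reported. Without background correction, and with the deposited values, the members called against ESC were 0 instead of 2 and against MEF 1 instead of 3. Bud against early epiblasts fell to 0 instead of 1 without background correction, with median scaling, with the deposited values, with no filter and with amplified arrays normalized apart. Bud against streak epiblasts had 1 instead of 0 under median scaling. Leaving out each replicate gave 0 to 1 for bud against early epiblasts (unchanged in 2 of 17 fits), 0 to 1 for bud against streak epiblasts (1 without early bud embryo 2), 1 to 2 for amplified against unamplified RNA (1 without replicate 1) and 2 to 3 against MEF.

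Olig3 in the LB1 subline was -0.084 under median scaling. Msx1 in bud against early epiblasts was -0.33 under median scaling and ran from -0.094 to 0.28 with single embryos left out. The same range was -0.060 to 0.43 for streak against early and -0.36 to 0.10 for bud against streak epiblasts. Olig3 in amplified against unamplified RNA was -0.0052 without background correction, -0.78 under median scaling, -0.0051 with the deposited values, -0.29 without LB2, and -0.050 to 0.043 with replicates left out. Msx1 in bud against streak epiblasts passed under median scaling (-0.89, adjusted p = 0.0429). The cause was not tested for any of these.

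With the culture number as a replicate block, 3 members were called among lines and 7 gene and pair combinations in the sublines, and with no replicate block 2 were called in amplified against unamplified RNA, as reported. It changed no other call. A detection limit of 6.12 to 7.29 in epiblasts, against 4.99 to 5.55 in EpiSC, limits what can be said of Msx3 and Olig3 in embryos.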
